A study of Mus musculus with 10 samples.

Results

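The cells described here are cochlear supporting cells (SCs) of old mice that carried RNA of Slitrk6 and the genes found with it. They were selected on their own counts, as cells with a unique molecular identifier (UMI) in at least 3 of Slitrk6, Dgkb, Baiap2l1, Sox2, Nrcam and Ednrb, in fewer than 3 of Pcdh17, Vldlr, Tnnt2 and Aqp4, and in fewer than 3 of the hair cell (HC) genes Myo6, Myo7a, Pou4f3, Tmc1, Kncn and Gfi1. Cells were kept above a depth of 1000 UMIs and 200 genes if mitochondrial transcripts made up less than 25% of their UMIs, and of the 7272 cochlear cells so kept 502 met this rule, which is 6.90% (95% exact binomial interval 6.33 to 7.51, covering counting error only). Over both organs 17696 cells were kept. The values of these 16 genes chose the members, so they are given below as a description with no test.

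The study profiled the cochlear and vestibular sensory epithelia of wild-type CBA/J mice aged 22 months, a strain that loses hearing late in life, by droplet single-cell RNA sequencing. The animals were untreated, of both sexes, and were pooled (7 to 8 per library by the labels and methods, 7 by the series' design text), so that a library is a pool and no value belongs to 1 animal. Each organ had 5 deposited libraries, but replicate 2 held the cells of replicate 1 again (its 1313 barcodes were all in replicate 1 of the cochlea) and their counts differed by less than the sampling noise, so the pair was counted as 1 sample, replicate 2 was left out, and n = 4 per organ. No other pair of libraries shared more than 41 barcodes.

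SCs surround every HC of the inner ear, hold it in place, take up the potassium and glutamate that it releases, and secrete the extracellular gels that lie over it. They keep the transcription factor Sox2 into adult life, and in the cochlea they differ by position, with pillar and Deiters cells around the outer HCs and border and inner phalangeal cells around the inner HCs. Slitrk6 (chr14:110748580-110755149, minus strand, GRCm38) encodes a membrane protein with leucine-rich repeats that takes part in the innervation of the inner ear, and its loss causes deafness.

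Cochlea replicates 1, 3, 4 and 5 supplied 46, 295, 58 and 103 of these cells, with 169702, 1524105, 376401 and 465393 UMIs in all. Replicate 3 thus held 58.8% of them, and the text therefore gives values per library and means that weight the 4 libraries equally. The median cell had 3417 UMIs, against 2174 over all kept cochlear cells. Levels are given as CPM, the UMIs of a gene summed over the cells of a library and scaled to a total of 1000000. As every molecule is counted once from its end, they were not divided by gene length.

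The genes of the rule stood as follows. Slitrk6 had 306, 468, 361 and 459.8 CPM in the members of replicates 1, 3, 4 and 5, a mean of 399 CPM ± 78.6 (SD, n = 4) against 33.7 CPM in all other kept cochlear cells. Dgkb, a diacylglycerol kinase, had 265 CPM ± 27.1 against 13.2, and Nrcam, a neuronal cell adhesion molecule, had 262 CPM ± 26.8 against 22.3. Sox2 had 343 CPM ± 88.2, Baiap2l1 (a membrane-bending actin regulator) 359 CPM ± 100.4, and Ednrb (an endothelin receptor) 159 CPM ± 12.5. All 6 genes were above the other cells in each of the 4 libraries, which the choice of the members fixes.

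Slitrk6 had a UMI in 81.9% of the members and Ednrb in 44.0%. In macrophage-like cells of the same libraries, which should lack both genes and whose median depths were between 2451 and 3358.5 UMIs, the shares were 0.990% and 3.47%. With every cell thinned to 1000 UMIs the shares in the members fell to 42.2% for Slitrk6 and 20.3% for Ednrb, against 0.248% and 0.743%. Cells with 3, 4, 5 and 6 of the genes numbered 188, 163, 87 and 64.

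The cells just inside the threshold, with exactly 3 genes, had a median of 2313 UMIs, and the 310 cells just outside it, with exactly 2, had 2237. By means that weight the 4 libraries equally, the SC gene Slc1a3 stood at 815 CPM just inside and 487 just outside, Rorb at 909 and 466, and the fibrocyte transcript Apod at 231 and 553. Members with 5 or 6 genes were deeper, with a median of 6167 UMIs. Depth therefore moved with membership, and its part in the choice was not tested beyond the thinned counts.

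**Figure D1:**
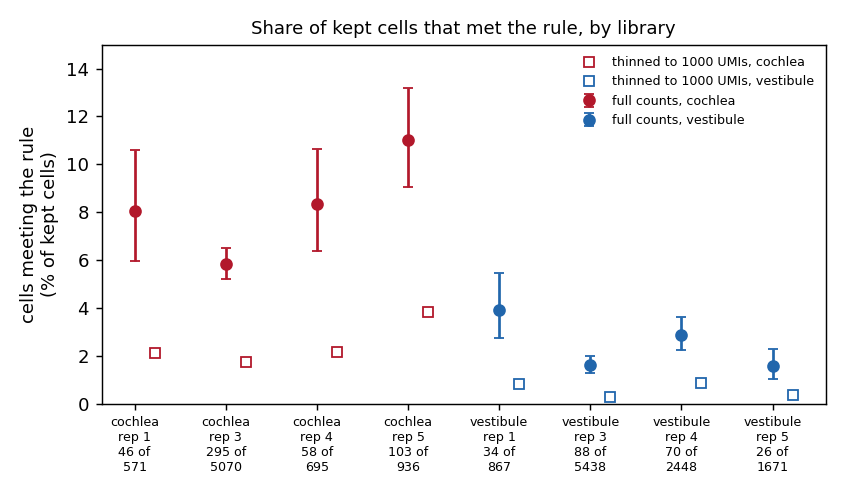
Share of kept cells that met the rule in each library (vertical axis, percent), with filled points for full counts, bars for the 95% exact binomial interval and open squares for cells thinned to 1000 UMIs. Every cochlear library (5.82% to 11.004%) lay above every vestibular one (1.56% to 3.92%), and thinning lowered all 8 values.

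The members made up 8.06%, 5.82%, 8.35% and 11.004% of the kept cells in cochlea replicates 1, 3, 4 and 5. Applied to the vestibule, the same rule found 218 of 10424 cells, and the shares were 3.92%, 1.62%, 2.86% and 1.56%. The organs did not overlap, and the means of 8.31% ± 2.12 and 2.49% ± 1.13 (SD, n = 4 each) lay 5.82 percentage points apart. This is a description with no test, because the rule was written from cochlear cells and 2 of its genes were low in the vestibule: Dgkb had 1 vestibular library above 0 and Baiap2l1 had a mean of 359 CPM in the cochlea against values of 37.7, 59.4, 46.9 and 65.6 CPM. An SC rule that shared only Sox2 with this one (at least 3 of Sox2, Jag1, Lfng, Otog, Otogl and Slc1a3) gave 11.4%, 6.75%, 11.1% and 11.1% in the cochlear libraries and 11.4%, 3.44%, 5.39% and 3.35% in the vestibular ones, which overlap.

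Among genes outside the rule, the members differed from the other cochlear cells in both directions. Of 7445 genes with at least 20 CPM in either class, 496 (6.66%) were over 1.5 times as high in the members in each of the 4 libraries, and 992 (13.3%) were as far below. The contrast is the rule's own, so these are descriptions. Rbp7, which encodes a retinoid-binding protein, was first in rank, with 229.8, 348, 579 and 55.9 CPM in replicates 1, 3, 4 and 5 against a mean of 10.8 CPM elsewhere, a ratio of 28.0. Its libraries differed by more than 10 times between replicates 4 and 5, and without the Fgfr3, neural glial and pigment cell groups described below its mean was 39.8 CPM, that of 4930426D05Rik 32.2 CPM in place of 70.4 and that of Klhl14 45.98 CPM in place of 71.5.

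Next in rank came Cpa6 (a carboxypeptidase), the long noncoding RNA 6330411D24Rik, E130114P18Rik, Eva1a, Rassf6, Klhl14, Creb3l4, Gm10638, 4930426D05Rik and Lfng. 6330411D24Rik was even, with 218, 221, 236 and 307 CPM against 19.95 elsewhere, and had a UMI in 46.8% of the members and 0.248% of macrophage-like cells. Slc20a1, a sodium-phosphate cotransporter, had 283, 289, 263 and 292 CPM, a mean of 282 CPM ± 13.0 against 35.03, and was even across the libraries. Lfng, a Notch-modifying glycosyltransferase, stood at 109 CPM ± 5.76 against 12.8. Ttll3, a tubulin glycine ligase, had 246 CPM ± 47.9 against 29.9, Pof1b 85.3 CPM ± 21.8 against 11.2, and Ism1 52.0 CPM ± 16.7 against 6.53.

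**Figure D2:**
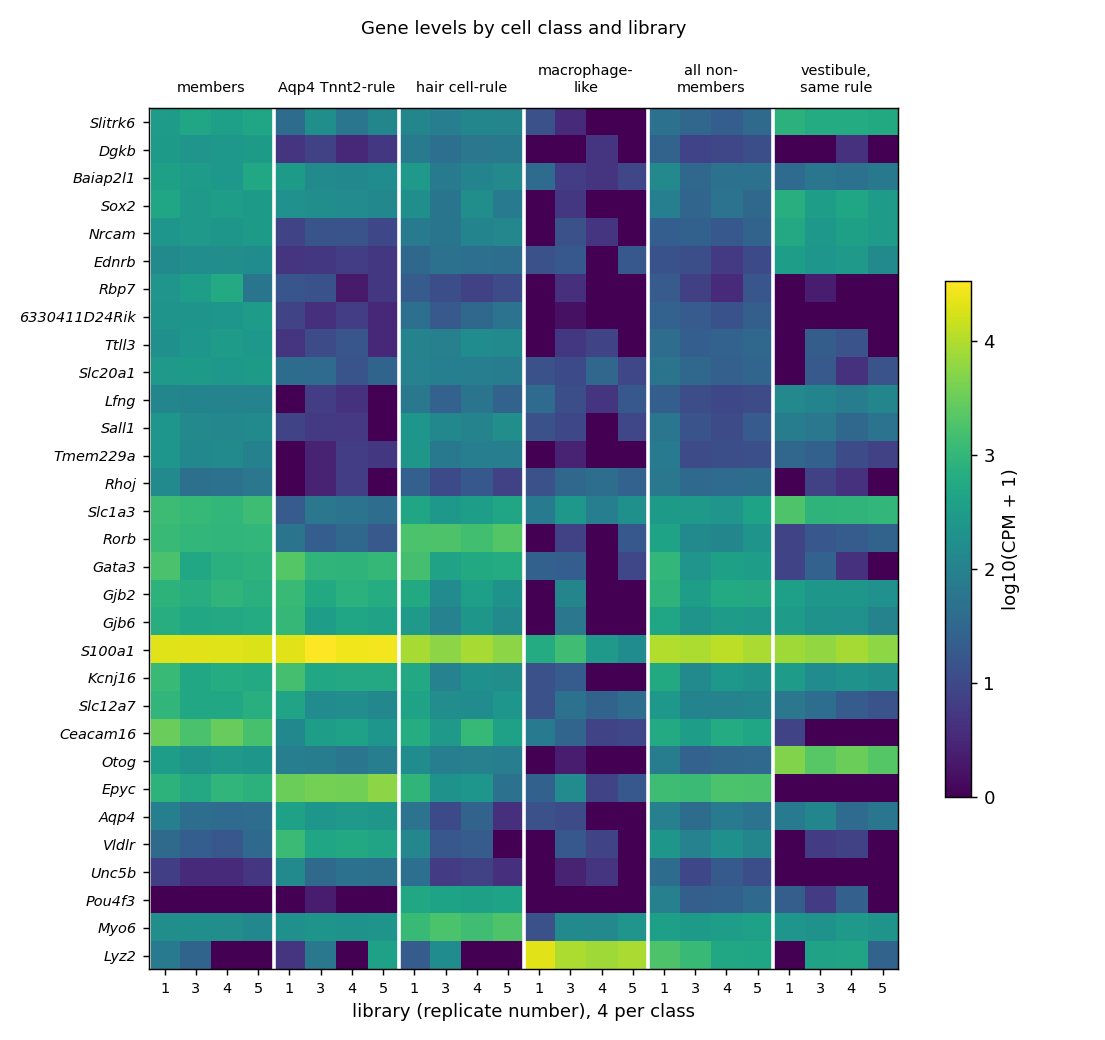
Levels of 31 genes (rows) in 4 libraries of each cell class (columns, labelled by replicate number), coloured by log10(CPM + 1). By their means, the genes of the rule and Rbp7 to Lfng are higher in the members than in the other cochlear classes, while Rorb (1764 CPM) and Sall1 (161 CPM) are at least as high in HC-rule cells and S100a1 is higher in Aqp4 Tnnt2-rule cells.

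A second population of cochlear cells carried Aqp4, Tnnt2, Vldlr and Pcdh17, of which 268 cells had a UMI in at least 3. They were deeper, with medians of 4783.5, 10550, 11345 and 10131 UMIs in replicates 1, 3, 4 and 5. The members had 2525, 3665, 4146 and 3068. Of the members, 77 held a UMI in 1 of these genes and 36 in 2, and the part of depth in the split was not tested. Of 6725 genes compared, 481 (7.15%) were over 1.5 times as high in the members in each library and 320 (4.76%) as far below. The highest ratios belonged to Cpa6 (72.9), Smpx (71.1), 6330411D24Rik (52.8), Tmem229a (50.8) and Lfng (48.6), followed by Rhoj, Sall1, Cdh2, Rbp7 and Gm13889. Smpx, a small muscle protein whose loss causes deafness, was also high in HC-rule cells (763 CPM against 132 CPM in the members). Cdh2, N-cadherin, had 79.2 CPM ± 10.5 against 2.17, and the transcription factor Sall1 had 161 CPM ± 51.2 against 4.29. Without the Fgfr3, neural glial and pigment cell groups described below, Gm13889 had 4.70 CPM in place of 61.7 and Tmem229a 97.6 CPM in place of 151.

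In the other direction stood Isg15 (1.48 CPM in the members against 54.1), Pmch, Unc5b (3.87 against 67.2), Ifit1, Car3, Apoc1, Fat2, Prkcb, Zmynd12 and Spock2. Isg15 and Ifit1 are interferon-induced genes, and Unc5b is a netrin receptor. Epyc, a proteoglycan of the cochlear matrix, was among the genes below as well. The members were thus separated from this second population by Slc1a3 (1161 CPM against 43.5) and Rorb (1011 against 30.8), while both populations held much S100a1 (20009.8 CPM against 27253).

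Markers of SCs that the rule did not use were abundant. Of 11 such genes compared (Gjb2, Gjb6, Slc1a3, Jag1, Lfng, Otog, Otogl, Tectb, Hes1, S100a1 and Fgfr3), 8 were over 1.5 times as high in the members as in the other cells in each library and none was as far below, against 6.66% of all genes. Slc1a3, the glutamate transporter of SCs beside inner HCs, had 1267, 1085, 975 and 1317 CPM, a ratio of 3.89. Gjb2 and Gjb6, the connexins of the SC gap junction network, had 788 CPM ± 106 and 579.8 CPM ± 68.2 and were not past that ratio (1.35 and 1.80 over the means, without 1.5 in each library). The shared SC markers thus bore the label, while those of SC subtypes varied. Ceacam16, a tectorial membrane protein made by Deiters and other SCs, had 2339.9 CPM ± 805 against 495 in the other cells. S100a6 had 984 CPM ± 290 against 276, but cells just outside the rule held as much (952 CPM, against 840 just inside, as means over the libraries). Of 4 Deiters cell genes compared, 3 were above the other cells (Fgfr3, Ceacam16 and Bace2) and none below, and the list summed to 2559 CPM against 608, while Prox1 (3.11 CPM) and Hes5 (0.164) were near 0. As a mean over the libraries, Fgfr3 stood at 75.2 CPM just inside the rule, 63.2 just outside it and 11.3 in members with 5 or 6 of its genes. Of 5 genes of Hensen, Claudius and sulcus cells, none was above in each library and 2 (Bmp4 and Epyc) were below, against 13.3% of all genes, with a sum of 1903 CPM against 2217 that was largest for Fabp3 (855 CPM ± 501). Of 3 genes of inner phalangeal and border cells, 1 (Slc1a3) was above and 1 below, with a sum of 2189 CPM against 786. Of 3 pillar cell genes, none was above and S100b was below, with a sum of 649 CPM against 1025 that was mostly Cryab, and Npy (1.52 CPM) and Ngfr (1.03) were near 0.

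Genes of Notch signalling, by which HCs and SCs instruct each other during development, were among those above. Of 12 compared, 5 were over 1.5 times as high as in the other cochlear cells and none as far below (6.66% and 13.3% of all genes): Notch1, Jag1, Hes1, Heyl and Lfng. Hes1, a transcriptional repressor downstream of Notch, had 507, 373, 438 and 559 CPM, and the ligand Jag1 had 301, 81.4, 82.4 and 127 CPM, with replicate 1 far above the others. Among ion transport genes Kcnj16 and Kcnj10, inwardly rectifying potassium channels, had 712 CPM ± 275 and 294 CPM ± 142, and Slc12a7, a potassium-chloride cotransporter, had 659 CPM ± 218, with ratios of 2.45, 3.19 and 4.49. These 3 were the only genes above the other cells of 16 compared in this list, and 8 were below. All genes gave 6.66% and 13.3%.

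Of 23 genes of junctions and polarity 9 were above the other cells and 2 below, where all genes gave 6.66% and 13.3%. Epcam, an epithelial adhesion molecule, had 660.0, 1248, 1807 and 1414 CPM, and Cldn9, a tight junction claudin, had 559 CPM ± 87.4. Of 23 transcription factors compared, 7 were above (Sox10, Gata3, Isl1, Rorb, Tbx2, Id1 and Id4) and 1 below, beside the same shares of all genes. Rorb, a nuclear receptor, was even at 1126, 991, 938 and 991 CPM, whereas Gata3, which the cochlea needs to form, had 1709 CPM in replicate 1 and 515 in replicate 3. Of 9 Slitrk family members and synaptic adhesion genes compared, 4 were above (Slitrk3, Ptprf, Il1rapl1 and Cadm4) and 4 below, Ptprd and Cadm1 among them. Slitrk3 had 29.6 CPM ± 13.2 against 4.33, Ptprf had 274 CPM ± 93.1 against 142, Ptprd had 12.5 CPM ± 7.51 against 68.9, and Slitrk4 and Slitrk5 had no UMI in any member.

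The members were not uniform. When marker groups were formed after their values had been seen (a UMI in at least 3 of 6 genes), 376 cells fell in a group with S100a6, Slc1a3, Fibin, Basp1, Sfrp1 and Tbx2, and 43 in a group with Fgfr3, Tectb, Plbd1, Tesc, Acbd7 and Emx2. Only 3 cells met both rules, 78 met neither these nor the glial and pigment rules, and the groups get no test because the same counts formed them. The Fgfr3 group held 8.70%, 10.5%, 6.90% and 3.88% of the members in replicates 1, 3, 4 and 5, and the S100a6 group 67.4%, 74.2%, 82.8% and 75.7%.

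For levels, the S100a6 group left out cells that also met the Fgfr3, neural glial or pigment cell rule. The Fgfr3 group left out none, and the pigment cell gene Dct stood at 276 CPM in it against 14.2. Over the pooled cells of the Fgfr3 group, Fabp3, a fatty acid-binding protein, reached 5820.1 CPM against 112 CPM in the S100a6 group. Clu (clusterin, an extracellular chaperone) stood at 12315 CPM against 508, Rbp7 at 1976 against 46.9, Bace2 at 465 against 80.6 and Tuba1a, an alpha tubulin, at 563 against 92.2. Rbp7 and Fabp3 were higher in this group in each of the 4 libraries, and with 4 cells in each of replicates 1, 4 and 5 these per-library levels were coarse. Over the pooled cells Slitrk6 itself was alike in the 2 groups at 438 and 452 CPM, and so was Dgkb at 276 and 257. In replicate 4, however, Slitrk6 had 130 CPM in the Fgfr3 group against 394 in the S100a6 group. Ednrb and Baiap2l1, also in the rule, were nearly confined to the S100a6 group, with 2.79 and 33.4 CPM against 184 and 407.

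The S100a6 group, which Slc1a3 helped to define (1405 CPM against 109), held more Epyc (721 CPM against 16.7) and Gjb2 (857 against 176). It also held Tgfb2, a growth factor, at 307 CPM against 2.79. Ceacam16 ran the other way, with 1761 CPM against 3523 in the Fgfr3 group, and replicates 1 and 4 reached 10042 and 7584 CPM there while replicates 3 and 5 had 2183 and 1281, the last below the 1702 CPM of the S100a6 group there. A further 4 cells, all in replicate 3, met a rule of neural glial genes (Bcan, Gria2, Gpm6b, Lhfpl3, Scg3 and Scrg1), and 5, also in replicate 3, held at least 3 pigment cell genes.

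**Figure D3:**
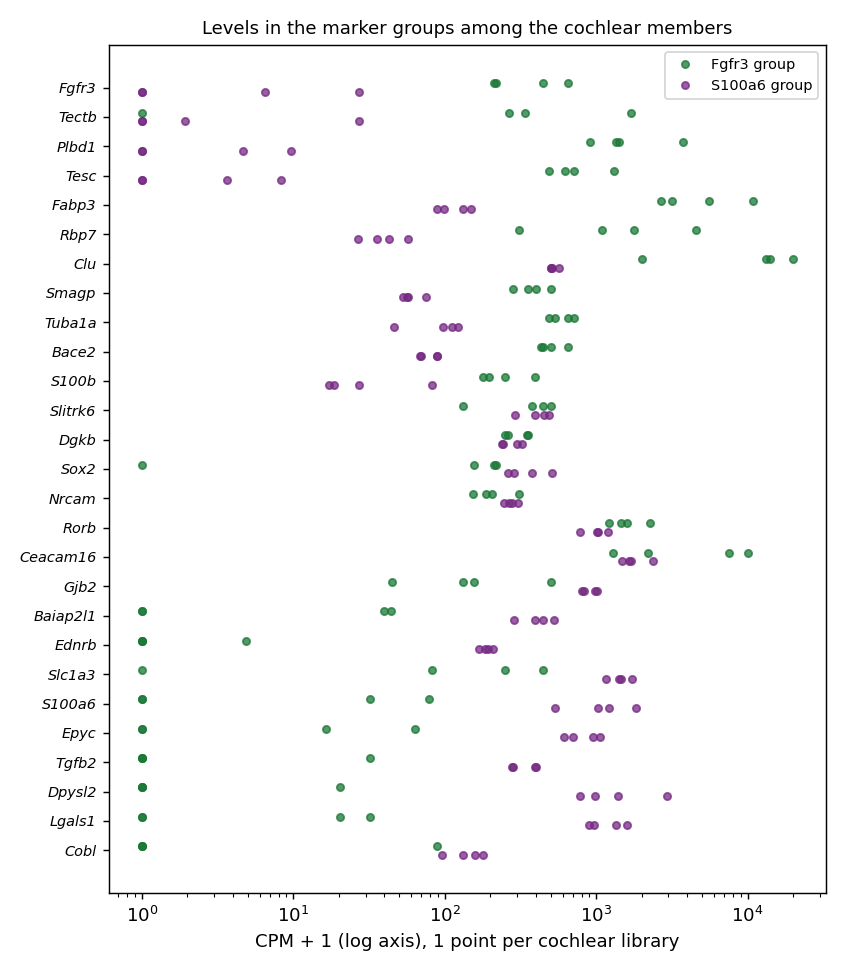
Levels in the Fgfr3 group (green) and the S100a6 group (purple) of the members, 1 point per cochlear library, on a logarithmic axis of CPM + 1. Slitrk6, Dgkb and Nrcam overlap between the groups, Fgfr3 to S100b are higher in the Fgfr3 group with the exception of 1 library of Tectb, and Gjb2 and Baiap2l1 to Cobl lie lower in it.

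Markers of several other cell types were lower in the members than in the other cochlear cells. The 10 macrophage genes summed to 100.2, 83.3, 2.66 and 4.30 CPM in replicates 1, 3, 4 and 5, against a mean of 1859 CPM in the other cochlear cells. Their most abundant gene was Lyz2, and Adgre1 was at 0. The 7 fibrocyte genes summed to 456 CPM ± 291 against 4791, led by Apod, with Col3a1 at 0. The 12 HC genes outside the rule summed to 235 CPM ± 53.7 against 13113 CPM in HC-rule cells, led by Ush1c, with Calb1 and Strc at 0. Of 9 compared, 8 were below the other cells (13.3% of all genes), and Ush1c was above them in each library, with 99.7 CPM ± 20.5 against 47.5.

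This did not hold for every list. Glial genes, led by Sox10, which SCs also express, summed to 461 CPM ± 95.6 against 569, and in replicates 4 and 5 the members stood above the other cells (375 and 387 CPM against 280.1 and 230.1). Neuronal and endothelial genes, in contrast, were lower in the members, at 14.99 CPM ± 25.1 against 672 and 56.8 CPM ± 73.8 against 622. Replicate 3 was the highest library of the members in both. Haemoglobin genes, whose copies share near-identical sequence, summed to 2375, 4553, 8114 and 153 CPM against a mean of 13891, and in replicate 4 the members were above the 2811 CPM of the other cells. The pigment cell genes stood at 11.8, 795, 7.97 and 8.59 CPM, so that replicate 3 alone carried them, mostly as Dct, and there stood above the 572 CPM of the other cells.

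**Figure D4:**
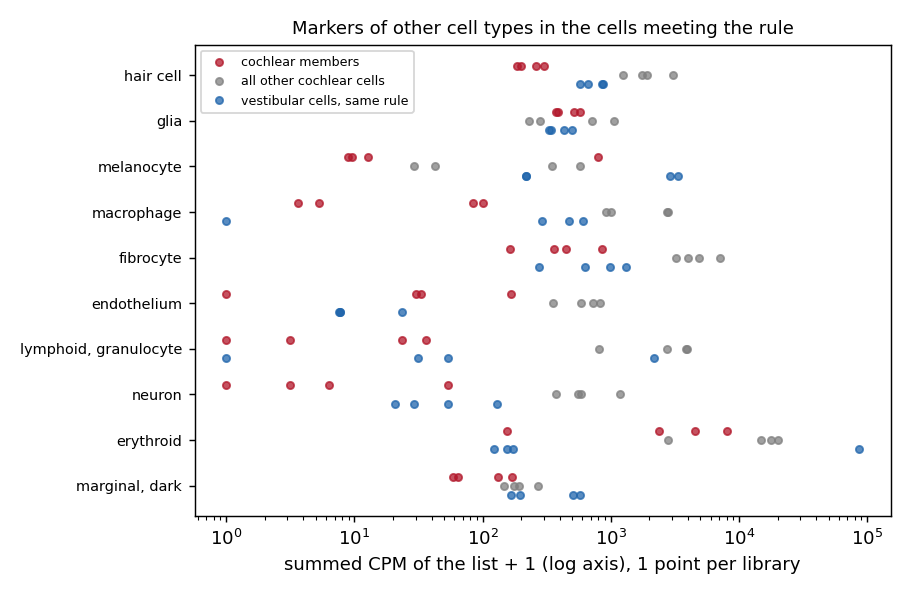
Summed levels of marker lists of other cell types (horizontal axis, CPM + 1, logarithmic), 1 point per library, in the cochlear members (red), all other cochlear cells (grey) and vestibular cells meeting the same rule (blue). HC genes are higher in the vestibular cells than in the members in every library, and 1 vestibular library stands far above the rest in haemoglobin.

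The cochlear members were then compared with the 218 vestibular cells that met the same rule, in 4 libraries each. The rule was written from cochlear cells, so the cells of the organs entered through different genes: Dgkb had a UMI in 65.1% of the cochlear and 0.459% of the vestibular ones, and Baiap2l1 in 73.1% and 24.8%. Genes of the rule were therefore left out of the counts below, and what the choice of cells adds to the other genes was not tested. Vestibule replicates 1, 3, 4 and 5 gave 34, 88, 70 and 26 cells. These differed from the cochlear ones in quality and content: median mitochondrial UMIs were 12.8%, 14.7%, 6.79% and 13.7% against 5.58%, 8.31%, 2.98% and 5.89%, and 36 of the 218 held a UMI in 2 of the 6 HC genes against 5 of the 502. The HC genes outside the rule summed to 739 CPM against 235, the pigment cell genes to 219, 2896, 3352 and 216 CPM, and haemoglobin to 86045 CPM in replicate 5 against 121, 173 and 154 in the others. The part of these in the results below was not tested, beyond the alternatives that leave such cells out. Fewer transcripts per cell and fewer cells of a subtype cannot be told apart in summed counts.

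Of 5121 genes tested outside the rule, 467 (9.12%) were higher and 665 (13.0%) lower in the cochlear cells at an adjusted p of 0.05 (edgeR quasi-likelihood test, Benjamini-Hochberg), and the libraries of 919 of these 1132 genes did not overlap between the organs. Over all genes 1168 (22.8%) did not overlap. The median change was -0.01 on the log2 scale. Leaving out cells with over 10% mitochondrial UMIs gave 288 higher and 247 lower of 3962, and leaving out all cells with an HC gene gave 143 and 136 of 1500, so that the excess of lower genes did not hold there.

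Genes of the extracellular gels separated the organs. Of 12 tested, 2 were higher in the cochlear cells and 9 lower (9.12% and 13.0% of all genes), with a median log2 change of -3.49 against -0.01 over all genes. Epyc (chr10:97644068-97682454) had 843, 543, 938 and 808 CPM in the cochlear libraries and no UMI in any vestibular one. That is at least 296-fold higher, against a floor of 3 UMIs over the vestibular libraries together (adjusted p = 2.74e-09). Ceacam16 (chr7:19852097-19861299) had 3088, 1649, 2984 and 1639 CPM and 1 UMI in the vestibule, a ratio of 2571 over summed counts with a 95% counting interval of 461 to 101560 (adjusted p = 5.69e-10). Both organs were far apart in each library.

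Otog (chr7:46240987-46311434), which encodes otogelin, a component of the tectorial, otoconial and cupular gels, ran the other way. It had 348, 217, 279 and 249 CPM in the cochlear cells and 4719, 2258, 3161 and 2133 CPM in the vestibular ones, a log2 change of -3.51 ± 0.29 (SE, adjusted p = 5.94e-08). Otogl, its relative, fell less far, at -1.39 ± 0.26 (adjusted p = 0.000586). Tecta, alpha-tectorin, had no UMI in the cochlear members and 188, 159, 124 and 131 CPM in the vestibular cells, at least 128-fold lower in the cochlea. Otol1, an otoconial collagen-like protein, had 1719, 746, 727 and 1135 CPM in the vestibule and a mean of 2.71 CPM in the cochlea. Otoa, Tectb, Sparcl1, Col9a2 and Col11a1 were lower in the cochlea as well, with Otoa at 7.94 CPM against 430.4.

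Large changes outside these gels were spread over several functions. Higher in the cochlear cells were 6330411D24Rik (at least 105-fold), Lox (lysyl oxidase, a matrix cross-linking enzyme, at least 39.0-fold), Egfl6 (at least 23.8-fold) and the bone morphogenetic protein relative Gdf6 (at least 29.6-fold, with 265 CPM in replicate 1 against 63.0, 34.5 and 34.4 in the others, and a mean of 38.7 CPM in place of 99.3 without the groups above). 9230102O04Rik, at least 53.8-fold higher, lies within the span of Gata3 on the same strand (chr2:9883041-9889540 in chr2:9857078-9890034), so reads of the 2 genes may not be separable. Rbp7, Tdrd12 and Nat8l, an enzyme of N-acetylaspartate synthesis, had 1, 3 and 1 UMIs in the vestibule, and their ratios over summed counts were 425 (75.98 to 16789), 88.1 (29.97 to 429) and 90.9 (16.1 to 3609). Without the Fgfr3, neural glial and pigment cell groups the cochlear mean of Rbp7 was 39.8 CPM in place of 303, so the size of its ratio depends on those cells. Replicates were far from even for Rbp7 and Gdf6 in the cochlea, but no cochlear library reached the vestibular range.

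Lower in the cochlear cells were Hhla1 (at least 176-fold), the hair bundle phosphatase gene Ptprq (at least 69.6-fold), the protocadherin Pcdh20 (at least 54.3-fold), 4930512H18Rik (at least 45.3-fold) and Zmat4 (at least 39.6-fold), none of which had a UMI in the 502 members. D430041D05Rik and Slc18a2, a vesicular monoamine transporter, had 1 UMI each there. Over summed counts their ratios in favour of the vestibule were 417 (74.1 to 16564) and 279.6 (49.4 to 11118). The means that weight the libraries equally were 195 CPM in the vestibule against 0.164 for D430041D05Rik and 103 against 1.47 for Slc18a2. Gm266 had 648, 496, 693 and 433 CPM in the vestibular cells and a mean of 5.08 CPM in the cochlea. Ptprq is an HC gene, and the HC genes Otof, Ush1c, Espn and Tmie were lower in the cochlear members too (4 of 5 tested, against 13.0% of all genes). Otof, Ush1c, Espn and Tmie are part of the HC gene sum given above, which was larger in the vestibular cells. The part of HC content in these changes was not tested, beyond the alternatives that leave such cells out.

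Of 21 transcription factors tested, 7 were higher in the cochlear cells and 2 lower, with a median of 0.39, where all genes gave 9.12% and 13.0%. Rorb (chr19:18930605-19111196) had 1126, 991, 938 and 991 CPM against 7.54, 16.2, 20.1 and 26.2 in the vestibule, a log2 change of 5.81 ± 0.31 (adjusted p = 5.69e-10). Gata3 had 949 CPM ± 524 against 9.14 CPM ± 11.4, a change of 6.01 ± 0.52 (adjusted p = 9.78e-08). Id1, Id2 and Id3, inhibitors of helix-loop-helix factors, rose by between 1.04 and 2.15 on the log2 scale, and Eya4 and Isl1 by 0.86 and 1.05. Prox1 and Hmx2, a homeobox gene of the vestibular system, were lower, with Hmx2 at 0.164 CPM against 43.0. Zbtb20, the most abundant of the list, Sox10 and Sox9 did not pass the test, at -0.69 ± 0.27, 0.52 ± 0.21 and -0.71 ± 0.30.

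Potassium handling and gap junction genes were divided. Both connexins tested rose, Gjb2 by 1.58 ± 0.24 (854, 664, 895 and 739 CPM against 362, 247, 251 and 190.3) and Gjb6 by 1.53 ± 0.26. Of 11 potassium genes, Slc12a7, Kcnj16 and Kcnk1 were higher in the cochlear cells and 4 lower, Slc12a2 and Atp1b2 among them, with a median of -0.27, where all genes gave 9.12% and 13.0%. Slc12a7 had 961, 493, 505 and 677 CPM against 60.3, 41.9, 20.1 and 13.1 (4.22 ± 0.36, adjusted p = 7.19e-08). Kcnj10 was not called, at 0.20 ± 0.29.

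**Figure D5:**
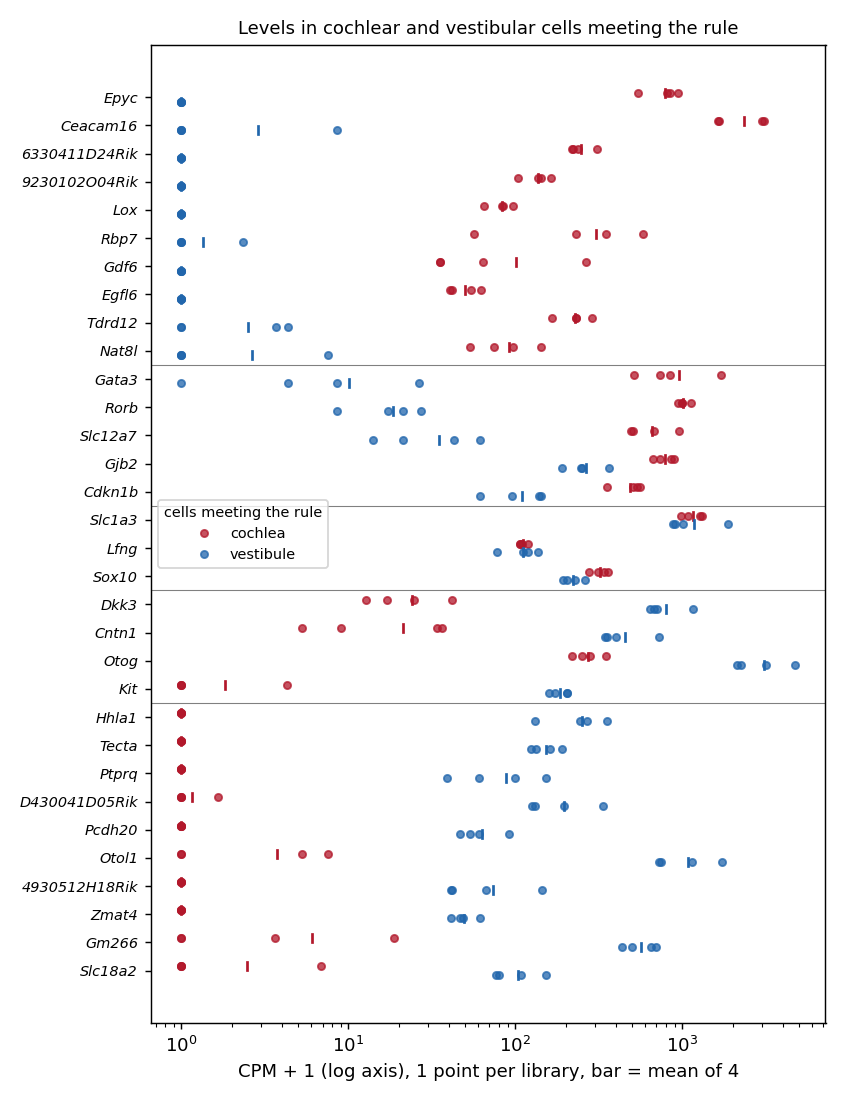
Levels in cochlear (red) and vestibular (blue) cells meeting the rule, 1 point per library and a bar at the mean of 4, on a logarithmic axis of CPM + 1. The upper 15 genes do not overlap and are higher in the cochlea, Slc1a3 and Lfng overlap, Sox10 is separated by a narrow margin and was not called, and the lower 14 genes are higher in the vestibule.

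Of 8 partners of Nrcam tested, 1 (Ank2) was higher in the cochlear cells and 5 (Chl1, Cntn1, Cntnap2, Nrp2 and Plxna4) lower, with a median of -2.64, where all genes gave 9.12% and 13.0%. Cntn1, contactin 1, had 35.4, 32.8, 7.97 and 4.30 CPM against 724, 343, 355 and 400.3 (-4.38 ± 0.43, adjusted p = 3.85e-07), and Chl1, a relative of Nrcam, had 1.86 CPM against 107. Of 22 junction genes, Cldn14 and Ildr1 were higher, a share near the 9.12% of all genes. A further 7 were lower (13.0% of all genes), among them Epcam (-0.95 ± 0.30) and Celsr1, a planar polarity cadherin (-2.85 ± 0.35). Cldn9 did not differ by the test (-0.04 ± 0.25). None of 6 synaptic adhesion genes was higher and 3 (Nrxn3, Cadm1 and Cadm4) were lower, beside the same shares of all genes.

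Of 11 genes of the Wnt list, 4 were lower in the cochlear cells (against 13.0% of all genes) and none higher. Dkk3, a secreted modulator of Wnt signalling, had 11.8, 40.7, 15.9 and 23.6 CPM against 1153, 637, 707 and 676 (-4.83 ± 0.35, adjusted p = 1.03e-08) and Sfrp1 had 158 CPM ± 47.5 against values of 1040.4, 488, 616 and 545. Lgr6 and Fzd7 were the others. Of 6 genes of fibroblast growth factor signalling 1 (Spry2) was higher, where 9.12% of all genes were, and 3 were lower, and replicate 1 held 359 CPM of Spry2 in the cochlea against 53.1, 29.2 and 62.3 in the others. Kit, a receptor kinase, had a single cochlear library above 0 (3.28 CPM) and 204, 173, 157 and 203 CPM in the vestibule. Kit is also a gene of pigment cells, and Dct was at 2523 and 2960 CPM in vestibule replicates 3 and 4 and at 0 in replicates 1 and 5. The part of such cells was not tested.

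Of 25 cytoskeletal genes, 2 were higher (S100a1 and Stmn1), a share near the 9.12% of all genes, and 6 were lower (13.0% of all genes). S100a1, a calcium-binding protein, was the most abundant gene of the SC list, with 19870.1, 20934, 20034 and 19201 CPM against 7735, 6211, 8221 and 5722 (1.52 ± 0.22, adjusted p = 4.60e-05). The keratins Krt8 and Krt18 had 10.9 and 15.2 CPM in the cochlea against 168 and 157. Of 6 cell cycle inhibitors and regulators, Cdkn1a and Cdkn1b were higher, and Cdkn1b, which keeps SCs from dividing, had 554, 351, 505 and 535 CPM against 60.3, 94.5, 141 and 138 (2.13 ± 0.27, adjusted p = 8.86e-06). Cdkn2a, Mki67 and Top2a had no UMI in any cochlear member, and a count of 0 allows up to 1.18 CPM over the 4 libraries (3 UMIs of 2535601). In the vestibule Mki67 was at 0 in replicates 1, 3 and 4 and at 669 CPM in replicate 5, the library with the high haemoglobin.

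Immediate early and stress genes were mostly higher in the cochlear cells. Of 9 tested, 7 (Fos, Jun, Junb, Jund, Egr1, Ier2 and Dusp1) were higher and 1, the chaperone Hsp90aa1, lower, with a median of 2.77, where all genes gave 9.12% and 13.0% and a median of -0.01. Jun had 82.5, 142, 877 and 127 CPM in the cochlear libraries and 37.7, 37.8, 70.3 and 26.2 in the vestibular ones. Replicate 4 was far above the other cochlear libraries for Jun, Junb, Fos and Ier2. These genes respond to handling of tissue, and whether the organs differed in handling was not tested.

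Some SC genes did not pass the test between the organs, which does not show that they were alike. Slc1a3 had 1161 CPM ± 159 and 1171 CPM ± 479 (a log2 change of -0.01 ± 0.27), and the changes of Lfng and Jag1 were 0.01 ± 0.23 and 0.76 ± 0.39. Of 11 SC markers tested between the organs (the list above with Prox1 and without Fgfr3), 4 were higher in the cochlear cells (Gjb2, Gjb6, Hes1 and S100a1) and 4 lower (Prox1, Otog, Otogl and Tectb), with a median of 0.01, where all genes gave 9.12% and 13.0%. S100a6 differed between vestibular libraries by more than between organs, with 15.1, 1488, 794 and 26.2 CPM in replicates 1, 3, 4 and 5 of the vestibule.

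Macrophage-like cells of the same 8 libraries (404 cochlear and 249 vestibular cells) served to show what the organs' libraries shared. Over 2832 genes tested in them, none was higher in the cochlea and 2 (0.0706%) were lower by edgeR, with 260 at an unadjusted p under 0.05. Of the 417 organ calls in the rule cells that could be tested there, none was called in the same direction. With only 2 calls in macrophage-like cells, that count was nearly fixed beforehand and does not show what the libraries shared. In the fit over both cell classes with library as a block, the organ difference lay further towards the cochlea in the rule cells than in the macrophage-like cells for 104 of 5327 genes (1.95%) and further towards the vestibule for 241 (4.52%), 6.48% in either direction. Of 1008 organ calls that entered that fit, 273 passed this second test in the same direction.

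Rorb was among them (6.15 ± 0.96, adjusted p = 0.00169), as were Slc12a7 (3.40 ± 0.61, adjusted p = 0.00381), Cdkn1b (2.18 ± 0.43, adjusted p = 0.00761) and, with the opposite sign, Cntn1 (-9.35 ± 1.06, adjusted p = 0.000256), Kit and Dkk3. Otog was not (-0.14 ± 0.93, adjusted p = 0.970), and macrophage-like cells also had more Otog in the vestibule, at 6.99 CPM against 0.308, although at levels far below those in the rule cells. Gata3, Ceacam16 and Rbp7 missed this threshold at adjusted p of 0.238, 0.0637 and 0.111. Nat8l (-0.23 ± 0.46, adjusted p = 0.853) and Tdrd12 (0.78 ± 2.20, adjusted p = 0.902) missed it as well, with 10.4 and 6.03 CPM in cochlear macrophage-like cells and none in vestibular ones, as did Otol1 and Gm266. For Epyc, 6330411D24Rik, Tecta and Hhla1 a term was fitted but not called. It says little there, since 1 or both organs had no UMI or very few in macrophage-like cells, and Epyc had 50.2 CPM in the cochlear ones. These genes are thus not shown to differ more in the rule cells than in the macrophage-like cells. Without replicate 3 the counts were 51 and 88, and without replicate 4 they were 32 and 92.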

How the data were processed

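Per the labels, the authors deposited a raw UMI count per gene and barcode, made with Cell Ranger as filtered matrices on mm10 and not normalized. Version 6.1.2 is named in the submitters' processing notes, beside Seurat, and the file headers name 5.0.1 for replicates 1 and 2 of both organs. The members and gene lists were chosen with earlier results of these data known. Classes were taken in the order HC rule, Aqp4 Tnnt2 rule, Slitrk6 rule, macrophage-like cells and others, where macrophage-like cells held a UMI in at least 3 of C1qa, C1qb, C1qc, Csf1r, Adgre1 and Mrc1. No doublet caller was run. Cells above the 95th percentile of UMIs were left out in an alternative instead.

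UMIs were summed per library and class. The organs were compared in edgeR 4.0.16 (R 4.3.3) by quasi-likelihood tests after TMM scaling and filterByExpr, with p-values adjusted by Benjamini-Hochberg over all genes that entered. Each library is a pool of mice, so p-values measure the spread between pools. Members were set against other cochlear cells by their ratio in each library, without a test. Named genes were the 15 with the highest ratio over the other cells, 10 in each direction against Aqp4 Tnnt2-rule cells (at least 50 CPM and 20 UMIs), 10 in each direction among organ calls without overlap (at least 30 CPM), and in each of 37 lists the most abundant members, the largest organ calls and defining genes near 0. Further members are named where a list is counted, and a few are not reported here. The Fgfr3, S100a6 and neural glial groups, and the alternatives that leave out such cells, were chosen after seeing the data. For thinned shares each cell was drawn down to 1000 UMIs. A count of 0 was given a floor of 3 UMIs over the organ. Coordinates come from GENCODE M21 (GRCm38), which held 32158 of the 32285 gene IDs. DESeq2 1.42.0 was an alternative. On counts drawn for 5042 genes of the organ comparison, edgeR recovered 98.7% of 79 genes changed 4-fold and 42.9% of 84 changed 2-fold, with 6 false calls. For the organ by class term, over 5122 genes, it recovered 45.3% of 86 and 1.14% of 88, with 1 false call. Every gene was drawn with the common dispersion of the rule cells, in macrophage-like cells too, and libraries were drawn independently. These rates therefore do not cover genes that varied more between libraries.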

Additional observations from a re-analysis of the deposited data

Results flagged for a closer look

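Of 133 groups of 4 libraries looked at, 19 had a library far from the other 3, where chance gives about 1 in 20, and the replicates concerned were mostly replicate 1 or 3. In the cochlear members, replicate 1 stood above the other libraries for Rassf6 (165 CPM against a median of 94.5 in the rest), Klhl14 (106 against 61.1), Rhoj (147 against 50.5) and Gdf6 (265 against 34.5), for the summed fibroblast growth factor list (889.8 CPM against 307) and for the diacylglycerol kinases (165 CPM against 85.0). Replicate 3 of the members stood above the rest in the summed pigment cell genes (795 CPM against 8.59) and neuronal genes (52.5 against 2.15), and replicate 4 in the immediate early and stress genes (4338 against 1976).

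In the vestibular cells meeting the rule, replicate 3 was below the rest for Smpx (44.6 CPM against 75.4) and Cdh2 (63.5 against 100.5), and above it for the summed lymphoid and granulocyte genes (2172 against 30.1) and the share of cells in the Fgfr3 group (2.27%, with 0 in the other libraries). Replicate 5 was below the rest in the summed pillar cell genes (965 CPM against 1365) and far above it in haemoglobin (86045 against 154). Replicate 1 was above the rest in the endothelial genes (22.6 against 6.70), the glutamate and glutamine genes (2842 against 1437), the Notch genes (1274 against 837) and the Wnt genes (3483 against 1983).

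For 3 of the genes with the highest ratios in the members, the difference between the organs lay further towards the cochlea in the rule cells than in macrophage-like cells of the same libraries by the organ by class term in edgeR: Slc20a1 by 3.98 on the log2 scale (adjusted p = 0.0116), Smpx by 3.34 (adjusted p = 0.0195) and Rhoj by 3.99 (adjusted p = 0.00611). For Smpx and Rhoj the macrophage-like cells ran the other way, with 2.70 and 27.9 CPM in the cochlea against 15.9 and 43.7 in the vestibule.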

How the results depend on the processing

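Among 22 other settings of the organ comparison, none turned a call of 1 organ into a call of the other. The counts of genes higher and lower in the cochlear cells (467 and 665) moved by over 1.5 times with at least 4 of the 6 genes required (302 and 431, of 3700 genes tested), under 10% mitochondrial UMIs (288 and 247, of 3962), without cells holding an HC gene (143 and 136, of 1500), with the rule applied to thinned cells (93 and 129, of 845) and with no filter on low counts (801 and 1562, of 17285). These settings tested fewer genes from fewer cells, except the last. The share of calls that were higher in the cochlea went from 41.3% to 53.8% under the mitochondrial limit and to 51.3% without HC genes. Leaving out 1 library gave 373 to 568 higher and 542 to 832 lower. DESeq2 called 412 and 556, and held 954 of the 1128 calls it could test. For the organ by class term, leaving out 1 replicate number gave 32 to 110 higher and 88 to 240 lower.

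The difference in share of 5.82 points was 1.89 on thinned cells, 4.14 with 4 genes required, 7.49 under 10% mitochondrial UMIs and 4.92 to 6.65 when 1 library was left out, and is given without a test for the reason stated beside it. The cochlear cells numbered 314 with 4 genes required and 152 when thinned. Of 105 named genes called in the organ comparison, 104 kept their direction in each setting that tested them and 82 stayed past the threshold. Smpx was at -0.34 with the rule applied to thinned cells, and Zmynd12, not called at first, was at 1.02 with the other SC rule. Haemoglobin turned on vestibule replicate 5: when 1 library was left out, the organ comparison of Hbb-bs gave -3.39 to 4.88, the organ comparison of Hba-a1 -2.99 to 4.51 and the organ comparison of Hbb-bt -3.50 to 4.02, each highest without that library and each not called with all libraries.

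Same-numbered libraries of the organs had correlations of deviations of 0.273, 0.196, 0.172 and 0.0205 for replicates 1, 3, 4 and 5, and not every library correlated best with its own number. For replicates 1, 3 and 4 the same-numbered pair had the highest value of either library, and for replicate 5 it did not. Whether a shared number marks shared mice or handling is not stated in the labels or methods and was not tested. The main fit therefore used no block. With the number as a replicate block, 612 genes were higher and 784 lower. Depth limits what the smaller libraries show: vestibule replicate 5 had 26 cells and 152397 UMIs, and a gene with no UMI in the 218 vestibular cells may hold up to 2.27 CPM.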

Other observations

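Other partners of the genes in the rule were measured in the members. Of the diacylglycerol kinases beside Dgkb, Dgkh was the most abundant, with 58.9, 32.2, 39.9 and 23.6 CPM against a mean of 6.82 CPM in the other cochlear cells, and 4.05 CPM in the single vestibular library above 0. Edn2 and Kel had no UMI in the members, and Ece1, an endothelin-converting enzyme, was lower in the cochlear than in the vestibular cells (-2.004 ± 0.38 on the log2 scale, adjusted p = 0.000614 by edgeR). Of the relatives and partners of Baiap2l1, Cobl, an actin nucleator, and Mtss1 were higher in the cochlear cells (2.44 ± 0.31 and 1.21 ± 0.32), and Baiap2l2, an HC member of the family, had no UMI in the members.

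Among growth factors for neurons and their receptors, the factors Ntf3 and Gdnf and the receptors Ret and Gfra2 had no UMI in the 502 cells. Ptn and Mdk, heparin-binding growth factors, were lower in the cochlear than in the vestibular cells (-1.03 ± 0.30 and -1.96 ± 0.30), with Ptn at 666, 1667, 752 and 1102 CPM in the cochlea. Ptn was more abundant still in the other cochlear cells, at a mean of 3747 CPM. Of 7 further deafness genes tested, none was higher and Ptprq and Clic5 were lower in the cochlear cells, beside 9.12% higher and 13.0% lower of all genes.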
